A study of Mus musculus with 24 samples.

Results

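The genes described here encode the matrix metalloproteases (Mmp), the membrane-anchored ADAM proteins (Adam), the secreted ADAMTS proteases (Adamts), the ADAMTS-like proteins (Adamtsl) and the tissue inhibitors of metalloproteases (Timp). The rule takes every protein-coding mouse gene whose symbol is one of these prefixes followed by a number, and uses no measured value, although these families were picked for description with earlier results of the data known. The rule found 83 of the 47643 genes in the count files: 33 Adam, 19 Adamts, 5 Adamtsl, 22 Mmp and 4 Timp genes.

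The RNA-seq addressed how loss of Tsc2, which encodes a brake on the growth-promoting kinase complex mTORC1, changes gene expression in nociceptors, the sensory neurons that respond to harmful stimuli. Nav-Tsc2 mice carried Nav1.8-Cre, 1 floxed and 1 null Tsc2 allele (flox/null) and the Rosa26-ZsGreen reporter. Control mice carried the same Cre and the same reporter with Tsc2 flox/+, so in the sorted cells of controls 1 of the 2 Tsc2 alleles was open to deletion. Each genotype had 4 mice of 8 to 9 weeks on a mixed C57BL/6 and AJ background, with replicates 1 and 2 male and replicates 3 and 4 female. All 8 mice had a sciatic nerve crush 3 days earlier, and the L4 dorsal root ganglion (DRG) was taken from the other, uncrushed side. Green fluorescent cells were sorted, and 3 libraries of 100 cells were made from each mouse. Nav1.8-Cre is active in most nociceptors and in a part of the myelinated sensory neurons, so the sort is not limited to unmyelinated nociceptors.

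Most metalloproteases of these families share a catalytic domain in which 3 histidines hold a zinc ion and a glutamate takes part in cutting the peptide bond. Matrix metalloproteases and ADAMTS proteases cut proteins outside the cell such as collagens and proteoglycans, whereas catalytic ADAM proteins cut membrane proteins near the cell surface and release their outer parts, a step called shedding. Some ADAM proteins and all ADAMTS-like proteins have no such site and act by binding other proteins, and TIMPs block the catalytic site of the proteases. In the peripheral nervous system these proteins are known for roles in axon growth, myelination, pain and the response to nerve injury.

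The zinc-binding site was looked for in the protein that each gene's coding sequence gives (GENCODE M21, GRCm38). Of the 83 members, 55 had the full site of the metzincins, the protease clan of the Mmp, Adam and Adamts enzymes, and 6 Adamts members had it with another residue in place of its glycine. The other 22 members had none, among them 13 Adam, 5 Adamtsl and 4 Timp members. The coding sequence of the site is shown for 4 members that were called higher in Nav-Tsc2 mice and, at the aligned place, for the 3 Adam members that were called lower. Capitals mark the codons that encode one of the 5 conserved residues of the site (histidine, glutamate, histidine, glycine, histidine).
Adam8, chr7:139987893-139987925, minus strand: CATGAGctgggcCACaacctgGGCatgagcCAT
Adam19, chr11:46125050-46125082, plus strand: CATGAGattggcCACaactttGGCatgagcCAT
Mmp12, chr9:7352914-7352946, plus strand: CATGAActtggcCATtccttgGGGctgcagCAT
Adamts8, chr9:30952721-30953378, plus strand, split by an intron: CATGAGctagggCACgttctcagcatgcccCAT
Adam22, chr5:8143064-8143096, minus strand: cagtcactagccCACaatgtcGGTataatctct
Adam23, chr1:63547763-63547795, plus strand: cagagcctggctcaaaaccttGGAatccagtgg
Adam11, chr11:102773613-102773645, plus strand: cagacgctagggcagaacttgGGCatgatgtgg
Adam8, Adam19 and Mmp12 kept 5 of the 5 residues and Adamts8 4, whereas Adam22 kept 2 and Adam23 and Adam11 kept 1 each.

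The counts per mouse, summed over the 3 libraries, ranged from 47959617 to 61290435, and the libraries ranged from 8339220 to 34228180. Levels are given as CPM, counts scaled to a common library size after TMM normalisation. Tsc2 was at 13.4, 24.7, 21.5 and 24.1 CPM in control replicates 1 to 4 and at 8.70, 8.51, 7.30 and 10.95 CPM in Nav-Tsc2 replicates 1 to 4, a log2 fold change of -1.24 ± 0.22 (SE, edgeR adjusted p = 0.00373). The 7 nociceptor markers summed to 8953 to 16995 CPM in control and 4539 to 6750 CPM in Nav-Tsc2 mice. Satellite glia and Schwann cell markers summed to 1831 to 2311 CPM in control and 1915 to 2339 CPM in Nav-Tsc2 mice, and the 10 genes of this list had 0 calls by edgeR, 0 at an unadjusted p under 0.05 and 0 by DESeq2. Summed markers of macrophages, neutrophils and endothelial cells were higher in every Nav-Tsc2 mouse than in any control mouse, and those of red blood cells were lower (1.18 to 1.66 and 0.144 to 0.389 CPM). Pericyte and smooth muscle markers summed to 4.39 to 47.2 CPM in control and 19.3 to 147.5 CPM in Nav-Tsc2 mice, with 2 of the 4 tested higher (Acta2 and Pdgfrb). The 7 macrophage markers summed to 1.77 to 7.11 CPM in control and 7.90 to 19.4 CPM in Nav-Tsc2 mice, the 5 neutrophil markers to 0.119 to 0.361 and 2.49 to 5.48 CPM, and the 7 endothelial markers to 0.966 to 2.26 and 5.90 to 16.05 CPM.

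In all, 50 of the 83 members had enough counts to be tested and 35 had a mean of at least 1 CPM over the 8 mice. A gene was called when its edgeR adjusted p, over all 17178 genes tested, was under 0.05 and its log2 fold change (Nav-Tsc2 over control) was over 0.5 or under -0.5. Of the 50 members tested, 8 (16.0%) were called lower, where 8.05% of all genes tested were, and 7 (14.0%) were called higher, where 9.15% of all genes were. Among members with a mean of at least 1 CPM, 7 of 35 (20.0%) were lower and 6 (17.1%) higher, against 9.84% and 10.4% of all genes at that level. The mice of both genotypes did not overlap in 7 members that were lower and 9 that were higher, which is 14.0% and 18.0% of the members tested, where 12.3% and 14.6% of all genes were without overlap. These libraries are made from pools of cells, so fewer cells of a type and less RNA per cell cannot be told apart in any of these values.

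The lower members were Adam11, Adam22, Adam23, Adamts2, Adamts5, Adamtsl3, Mmp15 and Mmp23, and the higher members were Adam8, Adam19, Adamts8, Adamtsl5, Mmp12, Mmp19 and Mmp25. The Adam, Adamts, Adamtsl and Mmp groups each had members in both directions, although with the replicate number as a block 0 Adamts members were lower (adjusted p = 0.0934 for Adamts2 and 0.115 for Adamts5), and 0 of the 4 Timp genes were called in either by edgeR, with 0 at an unadjusted p under 0.05 and 0 called by DESeq2. The 15 called members spanned log2 fold changes from -3.19 (Adamts2) to 7.91 (Mmp12).

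**Figure D1:**
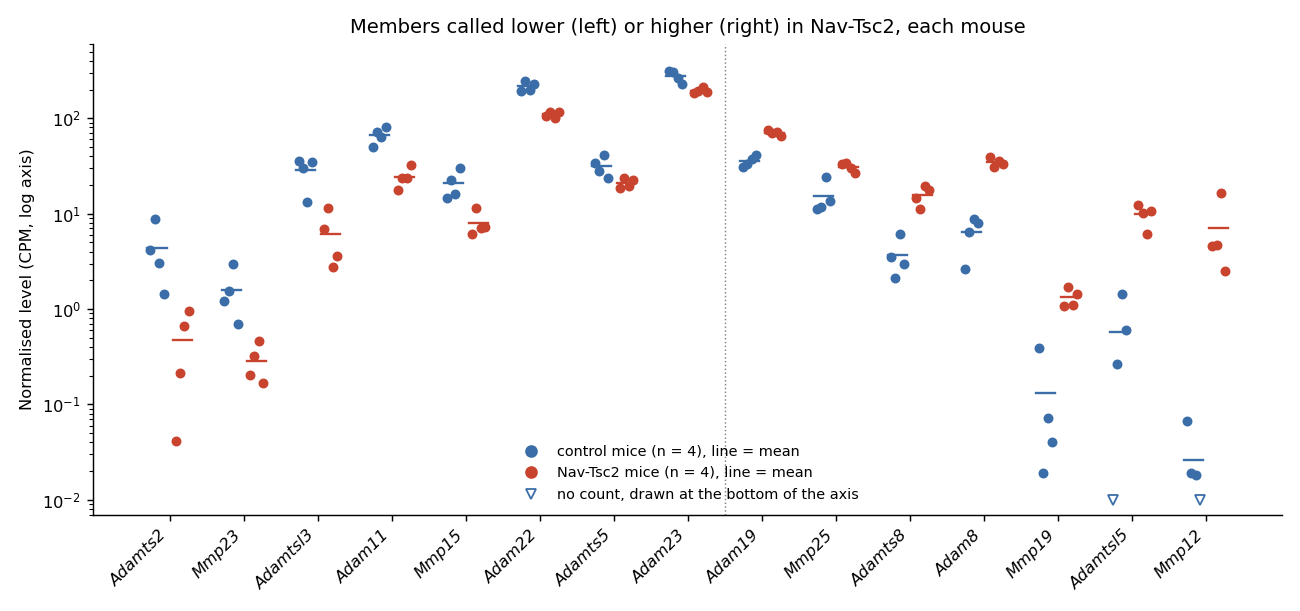
Normalised level (CPM, log axis) of the 15 called members in each of 4 control (blue) and 4 Nav-Tsc2 (red) mice, with horizontal lines at the means and open triangles for mice with no count. The mice of both genotypes are apart in 14 of the 15 members, and Adamts5 is the exception.

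At the level of subfamilies, the median log2 fold change among members with a mean of at least 1 CPM was 0.01 for 11 Adam, -0.59 for 9 Adamts, -0.45 for 4 Adamtsl, 0.49 for 8 Mmp and 0.02 for 3 Timp members. Over all 35 it was -0.13, with 18 negative and 17 positive values, beside -0.01 over all 13622 genes at that level. The medians rested on few genes: with a minimum of 5 CPM the Adamts median was -0.05 (4 genes), the Adamtsl median 0.93 (2 genes), the Mmp median 0.06 (4 genes) and the Timp median -0.20 (2 genes).

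**Figure D2:**
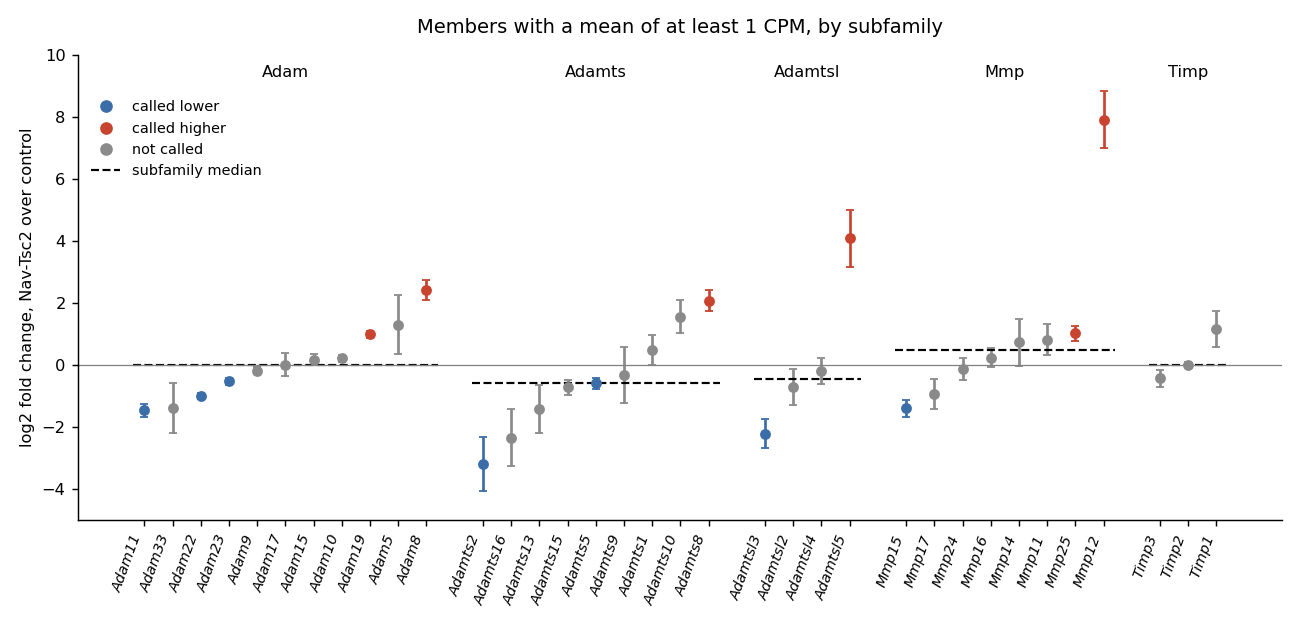
Log2 fold change (Nav-Tsc2 over control, bars are SE) of the 35 members with a mean of at least 1 CPM, grouped by subfamily, with dashed lines at the subfamily medians. Called members lie on both sides of 0 in the Adam, Adamts, Adamtsl and Mmp groups, and the 3 Timp genes shown are uncalled.

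Summed over a subfamily, the Adam genes amounted to 796.7 ± 61.9 CPM (SD, n = 4) in control and 639.6 ± 10.7 CPM in Nav-Tsc2 mice. The Adam sums of control mice, 794.4, 884.9, 750.3 and 757.3 CPM, were all above those of Nav-Tsc2 mice, 625.1, 639.3, 650.6 and 643.5 CPM. The Mmp sum was 76.6 ± 8.77 CPM in control and 92.0 ± 6.69 CPM in Nav-Tsc2 mice, with overlap between the genotypes. The Timp sum, 506.5 ± 58.3 and 507.6 ± 31.1 CPM, and the Adamts sum, 81.2 ± 20.3 and 80.1 ± 10.0 CPM, differed by less than the spread between mice.

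To compare levels between genes, CPM was divided by the exon length of each gene. Timp2, which encodes an inhibitor that also takes part in the activation of Mmp2, stood first with 122.7 ± 14.6 CPM per kilobase (SD, n = 4) in control and 124.2 ± 6.89 in Nav-Tsc2 mice. Adam10, the main sheddase of Notch and many neuronal membrane proteins, followed with 24.03 ± 3.75 in control and 28.0 ± 0.53 CPM per kilobase in Nav-Tsc2 mice. In control mice Adam23 (15.5 ± 2.28), Adam22 (15.1 ± 1.84), Adam9 (12.6 ± 0.93) and Adam11 (11.8 ± 2.35) came next. Adam23 and Adam22, and likewise Adam9 and Adam11, differed by less than their SD. In Nav-Tsc2 mice Adam9 (11.1 ± 1.16), Adam23 (10.8 ± 0.70) and Adam19 (9.95 ± 0.56) were the next 3, Adam22 (7.64 ± 0.51) and Adam8 (7.49 ± 0.71) were level, and Adam11 had 4.29 ± 1.07 CPM per kilobase. Adam8 had been at 1.39 ± 0.59 CPM per kilobase in control mice. Among Mmp genes, Mmp15 (3.88 ± 1.32), Mmp16 (3.09 ± 1.37) and Mmp25 (2.86 ± 1.14) lay within each other's spread in control mice, and Mmp25 was first in Nav-Tsc2 mice, at 5.84 ± 0.65 CPM per kilobase.

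**Figure D3:**
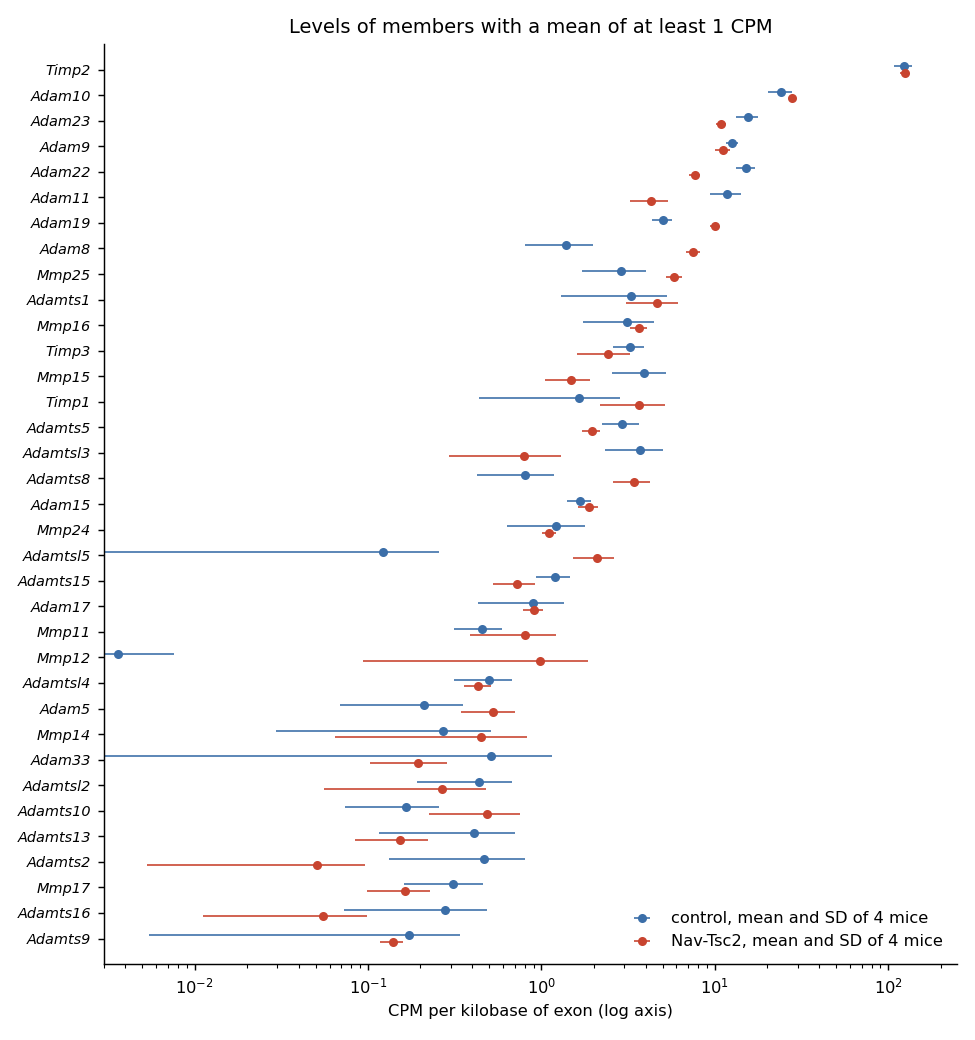
Level per length (CPM per kilobase of exon, log axis) of the 35 members with a mean of at least 1 CPM, ordered by their mean over 8 mice, as mean and SD of 4 control (blue) and 4 Nav-Tsc2 (red) mice. Bars that would pass below 0 run to the edge of the axis; Timp2 lies above 100 CPM per kilobase in both genotypes, and every other member lies under 30.

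Adam11, Adam22 and Adam23, the neuronal ADAM proteins that have no catalytic site and serve as receptors of the secreted LGI proteins at synapses and along axons, were all lower in Nav-Tsc2 mice. Adam22 was at 194.8, 247.9, 195.6 and 231.1 CPM in control and at 105.7, 116.2, 101.2 and 115.4 CPM in Nav-Tsc2 mice. The lowest control mouse was well above the highest Nav-Tsc2 mouse, and the 12 control libraries (150.2 to 274.8 CPM) did not overlap the 12 Nav-Tsc2 libraries (82.8 to 136.8 CPM) either. Its log2 fold change was -0.99 ± 0.10 (SE, edgeR adjusted p = 0.0002).

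Adam11 was at 49.9, 72.2, 63.7 and 81.2 CPM in control and at 17.5, 23.6, 23.8 and 32.3 CPM in Nav-Tsc2 mice. All Nav-Tsc2 mice were below all control mice, and the libraries were apart as well, with 40.9 to 109.6 CPM in control and 4.67 to 38.5 CPM in Nav-Tsc2 libraries. Nav-Tsc2 mice had 36.4% of the control mean, a log2 fold change of -1.46 ± 0.20 (adjusted p = 0.00104).

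Adam23, the most abundant of these 3 genes, was at 315.1, 306.8, 263.8 and 227.0 CPM in control and 183.7, 191.2, 212.0 and 188.4 CPM in Nav-Tsc2 mice. The genotypes did not overlap, but the lowest control and the highest Nav-Tsc2 mouse were close. The log2 fold change of -0.52 ± 0.11 (adjusted p = 0.00846) lay just past the limit of -0.5, and it fell short of that limit without Nav-Tsc2 replicate 1 (-0.49), control replicate 1 (-0.46) or control replicate 2 (-0.47) and in the fit of the 24 single libraries, in which each mouse was a random effect (-0.45). The calls were lost by size, since the adjusted p stayed between 0.000396 and 0.042 over the alternatives.

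The 5 called Adam genes fell on both sides of the zinc-binding site shown above. Among the 13 Adam members with no site, 6 were tested, and 3 of them were lower and 0 higher. Among the 20 with a site, 9 were tested, and 0 were lower and 2 (Adam8 and Adam19) higher. Of all genes tested 8.05% were lower and 9.15% higher, and the difference between both groups was not tested. These counts were equal at an unadjusted p under 0.05 and by DESeq2. In the fit of single libraries they were not: Adam4, without a site, was called higher (adjusted p = 0.0191), and the call of Adam23 was lost. The median log2 fold change at a mean of at least 1 CPM was -0.75 over 4 members without the site and 0.17 over 7 with it. The split did not extend to the other subfamilies: Mmp15, Mmp23, Adamts2 and Adamts5, all with the full site, were lower, and Adamtsl5, without one, was higher.

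The list of genes for known partners of Adam11, Adam22 and Adam23, drawn up like the other lists with earlier results known, held 12 genes, the LGI ligands, the scaffold proteins of the Dlg group and components of the axonal Kv1 channel complex. All 12 were tested and had a median log2 fold change of -0.50. By edgeR 5 were lower and 0 higher, with 6 lower and 1 higher at an unadjusted p under 0.05, and DESeq2 called 6 lower and 0 higher. The 5 lower genes are 41.7% of the list, where 8.05% of all genes were lower. A share like this was not limited to the partner genes. Of 6 markers of all neurons, 3 (50.0%; Snap25, Isl1 and Rbfox3) were called lower and 0 higher. At an unadjusted p under 0.05, 3 of these markers were lower and 3 higher. Kcna1, which encodes a Kv1 potassium channel subunit, was at 29.5, 46.0, 28.7 and 32.4 CPM in control and 3.89, 4.65, 8.74 and 10.3 CPM in Nav-Tsc2 mice, without overlap (log2 fold change -2.31 ± 0.32, adjusted p = 0.00109). Kcna2, a second subunit gene of these channels, fell from 107.7 ± 21.9 to 54.9 ± 3.97 CPM (SD, n = 4; log2 fold change -0.97 ± 0.14, adjusted p = 0.00109).

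The other lower partner genes were Lgi3, at 16.2 ± 4.64 CPM in control and 3.95 ± 1.73 CPM in Nav-Tsc2 mice (adjusted p = 0.00251), Cntnap2, which encodes the adhesion protein Caspr2 (adjusted p = 0.0042), and Lgi1 (adjusted p = 0.0146). Lgi1 fell from 49.9 ± 12.6 to 27.8 ± 4.98 CPM. With the replicate number as a block its adjusted p was 0.0594. Lgi2 went the other way without passing the test, from 2.11 ± 3.19 to 8.59 ± 2.93 CPM (adjusted p = 0.145).

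**Figure D4:**
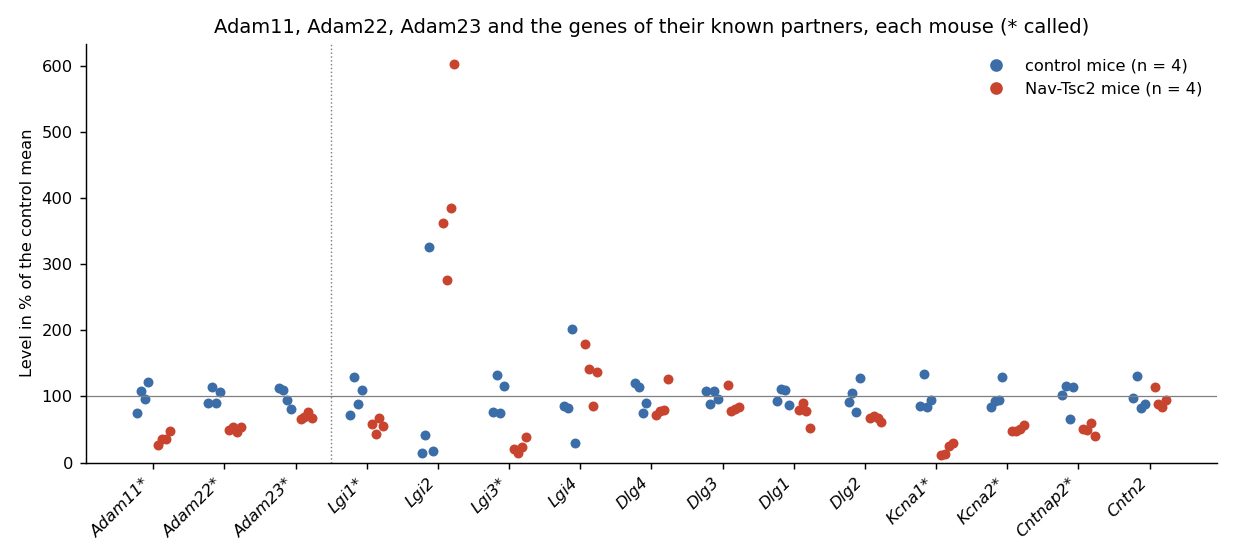
Level of Adam11, Adam22, Adam23 and of 12 partner genes in each mouse, in percent of the mean of the 4 control mice (blue, control; red, Nav-Tsc2; asterisks mark called genes). The 8 called genes lie below 100% in every Nav-Tsc2 mouse, and Lgi2, uncalled, lies above it in each.

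Of the catalytic ADAM genes, the 2 best-known sheddases did not pass the test. Adam10 was at 127.9, 137.8, 110.0 and 96.5 CPM in control and 137.5, 138.2, 139.9 and 133.7 CPM in Nav-Tsc2 mice, with overlap (log2 fold change 0.22 ± 0.11, adjusted p = 0.193). Adam17, which encodes the enzyme that releases tumour necrosis factor and ligands of the EGF receptor, was lower in level, at 5.08, 2.48, 10.0 and 7.99 CPM in control and 6.77, 6.88, 7.04 and 5.16 CPM in Nav-Tsc2 mice (log2 fold change 0.01 ± 0.38, adjusted p = 0.985). The wide spread of its control mice set the large error of that value.

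Adam8, which encodes an ADAM protease known from leukocytes and glia, was at 2.61, 6.49, 8.72 and 7.99 CPM in control and 38.8, 31.2, 35.6 and 33.3 CPM in Nav-Tsc2 mice. Every Nav-Tsc2 mouse was well above every control mouse, and each of the 12 Nav-Tsc2 libraries (26.2 to 46.9 CPM) was above each of the 12 control libraries (0.263 to 13.2 CPM). The mean was 5.38 times that of control, a log2 fold change of 2.43 ± 0.32 (adjusted p = 0.000802).

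Adam19, which encodes a protease linked to the processing of neuregulins, was at 31.0, 32.8, 37.3 and 41.4 CPM in control and 74.7, 70.5, 72.5 and 65.4 CPM in Nav-Tsc2 mice. The genotypes did not overlap, and the spread within each was small (log2 fold change 0.99 ± 0.11, adjusted p = 0.000327). Antisense genes cover 10.1% of the exon bases of Adam19, and without a strand-marking kit reads there cannot be told apart.

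Among the ADAMTS genes, those for the aggrecanases, which cut the large proteoglycans of the matrix, gave mixed values. Adamts5 was at 33.8, 28.0, 41.0 and 23.4 CPM in control and 18.5, 23.8, 19.4 and 22.4 CPM in Nav-Tsc2 mice, so that the lowest control mouse lay within the Nav-Tsc2 range. Its call (log2 fold change -0.59 ± 0.18, adjusted p = 0.0444) was near the limit: with the replicate number as a block the adjusted p was 0.115, and the call was lost without any 1 of 7 of the 8 mice, all but control replicate 4, with log2 fold changes from -0.66 to -0.44. Over the alternatives its adjusted p ranged from 0.0115 to 0.177.

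Adamts1 was at 28.9, 13.8, 22.3 and 4.60 CPM in control and 25.6, 26.4, 13.1 and 32.6 CPM in Nav-Tsc2 mice, and Adamts4 was under 1 CPM in each mouse. Both overlapped and did not pass the test (adjusted p = 0.528 and 0.287). Adamts15, another enzyme of the proteoglycan-cutting group, was at 12.3 ± 2.69 CPM in control and 7.48 ± 2.05 CPM in Nav-Tsc2 mice and missed the threshold at an adjusted p of 0.0609. It was called lower by DESeq2 (0.0186), with sex as a covariate (0.0458), without Nav-Tsc2 replicate 4 (0.0345) and without control replicate 2 (0.0472), in a range from 0.0186 to 0.661 over the alternatives.

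Adamts8, which encodes an ADAMTS protease that can inhibit the growth of blood vessels, was at 3.52, 2.14, 6.19 and 2.97 CPM in control and 14.4, 11.1, 19.6 and 17.5 CPM in Nav-Tsc2 mice. The genotypes were apart, with a mean 4.23 times that of control (log2 fold change 2.08 ± 0.34, adjusted p = 0.00229). An antisense gene covers 10.6% of its exon bases.

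Adamts2, which encodes the enzyme that trims the amino-terminal end of fibrillar procollagens, was at 4.20, 8.69, 3.04 and 1.45 CPM in control and 0.0411, 0.212, 0.670 and 0.965 CPM in Nav-Tsc2 mice. The groups did not overlap, though the values differed several-fold within each (log2 fold change -3.19 ± 0.86, adjusted p = 0.0262). With the replicate number as a block the adjusted p was 0.0934, and it was 0.0753, 0.0567 and 0.0716 without Nav-Tsc2 replicate 2, Nav-Tsc2 replicate 3 and control replicate 2, in a range from 0.000396 to 0.0934 over the alternatives.

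The ADAMTS-like proteins bind fibrillin and other matrix proteins and have no protease domain. Adamtsl5 was at 0, 0.265, 1.45 and 0.602 CPM in control and 12.3, 10.2, 6.19 and 10.5 CPM in Nav-Tsc2 mice. Its technical libraries had at most 1.90 CPM in control and at least 3.51 CPM in Nav-Tsc2 mice (log2 fold change 4.08 ± 0.92, adjusted p = 0.0121).

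Adamtsl3 moved in the other direction, at 36.0, 30.2, 13.3 and 34.5 CPM in control and 6.83, 11.3, 2.78 and 3.62 CPM in Nav-Tsc2 mice. The highest Nav-Tsc2 mouse was just below control replicate 3, which was far below the other control mice (log2 fold change -2.21 ± 0.47, adjusted p = 0.00849). Adamtsl2, at 3.48 ± 1.95 and 2.13 ± 1.68 CPM, and Adamtsl4, at 2.08 ± 0.76 and 1.82 ± 0.32 CPM in control and Nav-Tsc2 mice, overlapped between genotypes (adjusted p = 0.439 and 0.793).

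The matrix metalloproteases divide into membrane-bound and secreted enzymes. Of the membrane-bound ones, Mmp15 was lower, at 14.5, 22.7, 16.2 and 30.2 CPM in control and 6.05, 11.3, 7.15 and 7.24 CPM in Nav-Tsc2 mice. The groups did not overlap, and Nav-Tsc2 mice had 38.0% of the control mean (log2 fold change -1.40 ± 0.28, adjusted p = 0.00677).

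Mmp25, a membrane-anchored protease best known from leukocytes, was higher, at 11.3, 11.7, 24.1 and 13.6 CPM in control and 32.9, 34.2, 30.3 and 26.4 CPM in Nav-Tsc2 mice. Control replicate 3 came close to the lowest Nav-Tsc2 mouse, and the other control mice were far below it (log2 fold change 1.03 ± 0.24, adjusted p = 0.0147). Mmp16, at 26.8 ± 11.8 and 31.7 ± 3.50 CPM, Mmp24, at 5.69 ± 2.71 and 5.20 ± 0.50 CPM, and Mmp14, at 1.61 ± 1.43 and 2.66 ± 2.28 CPM in control and Nav-Tsc2 mice, overlapped, with adjusted p of 0.64, 0.844 and 0.553. Mmp14 encodes the activator of Mmp2, and Mmp24 a protease that is known to cut N-cadherin.

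Mmp23, which encodes a type II membrane protease with a domain resembling toxins that block potassium channels, was at 1.22, 1.53, 2.95 and 0.703 CPM in control and 0.206, 0.318, 0.457 and 0.169 CPM in Nav-Tsc2 mice. The genotypes did not overlap at these low levels (log2 fold change -2.47 ± 0.63, adjusted p = 0.021). The call was lost without Nav-Tsc2 replicate 1, 2 or 4 or control replicate 3 (adjusted p = 0.0673, 0.0552, 0.0584 and 0.0539), and in the fit of single libraries it was 0.171, within a range from 0.000285 to 0.171 over the alternatives.

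Of the secreted enzymes, Mmp12, the macrophage elastase, had the largest log2 fold change of the 50 members tested. It was at 0.0678, 0.0189, 0.0181 and 0 CPM in control mice, which is 6 counts in all, and at 4.55, 4.69, 16.6 and 2.52 CPM in Nav-Tsc2 mice, which is 1649 counts. Every Nav-Tsc2 mouse was far above every control mouse (log2 fold change 7.91 ± 0.92, adjusted p = 0.00039). With 3 of the 4 control mice under 3 counts the size of this value is uncertain, and it was 5.97 in the fit of single libraries. Within Nav-Tsc2 replicate 3 a single library had 61.5 CPM and the others 8.03 and 12.1 CPM, and within Nav-Tsc2 replicate 4 the libraries had 8.77, 0.0384 and 0.121 CPM. Without Nav-Tsc2 replicate 3 the log2 fold change was 7.06.

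Mmp19 was at 0.390, 0.0189, 0.0724 and 0.0402 CPM in control and 1.07, 1.72, 1.11 and 1.42 CPM in Nav-Tsc2 mice, without overlap (log2 fold change 3.31 ± 0.91, adjusted p = 0.028). With the replicate number as a block the adjusted p was 0.0503, and it lay between 0.0547 and 0.0783 without any 1 of the 4 Nav-Tsc2 mice or of control replicates 3 and 4, in a range from 4.11e-05 to 0.0783 over the alternatives. Antisense genes cover 28.3% of its exon bases.

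Of both gelatinases, Mmp2 was low and uneven and Mmp9 was not detected. Mmp2 was at 0.678, 0, 2.35 and 0.402 CPM in control and 0.453, 0.142, 0.0163 and 1.93 CPM in Nav-Tsc2 mice, with means of 0.858 ± 1.03 and 0.635 ± 0.882 CPM (SD, n = 4; edgeR adjusted p = 0.873), and Mmp9 had no count in any of the 24 libraries. A count of 0 allows up to 3 counts, 0.0489 to 0.0626 CPM in a mouse.

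Mmp12, Mmp25 and Adam8 are also known from leukocytes, and the summed macrophage and neutrophil markers were higher in the same mice. Of the 7 macrophage markers 5 were tested and 1 was called, Cx3cr1, at 0.033 ± 0.020 CPM in control and 5.71 ± 3.01 CPM in Nav-Tsc2 mice (adjusted p = 8.3e-05). DESeq2 called 2 of this list higher and 0 lower. Csf1r (0.803 ± 0.955 and 3.71 ± 1.12 CPM, edgeR adjusted p = 0.117) and Cd68 (0.495 ± 0.531 and 2.03 ± 0.476 CPM, 0.169) did not pass, although their mice did not overlap. Aif1 (0.870 ± 0.738 and 1.10 ± 0.252 CPM) and C1qb (1.75 ± 1.01 and 0.574 ± 0.979 CPM) overlapped and did not pass. C1qa was under 0.1 CPM, and Adgre1 was at 0.196 ± 0.392 CPM in control and 0.102 ± 0.128 CPM in Nav-Tsc2 mice. Of the 5 neutrophil markers the 2 tested, S100a8 and Ly6g, were higher, and S100a9, Csf3r and Ngp were under 0.1 CPM. Of the 7 endothelial markers 3 were tested and 2 were higher. These were Flt1 (0.034 ± 0.030 and 8.56 ± 4.01 CPM, edgeR adjusted p = 0.000119) and Kdr (0.358 ± 0.337 and 1.76 ± 0.769 CPM, 0.0493). Tek (0.510 ± 0.741 and 0.563 ± 0.598 CPM) did not pass. Pecam1 (0.422 ± 0.778 and 0.315 ± 0.374 CPM) and Emcn (0.384 ± 0.303 and 0.031 ± 0.062 CPM) were not tested, and Cdh5 and Cldn5 were under 0.1 CPM. The part of such cells in the levels of Mmp12, Mmp19, Mmp25, Adam8 and Adamts8 was not tested.

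**Figure D5:**
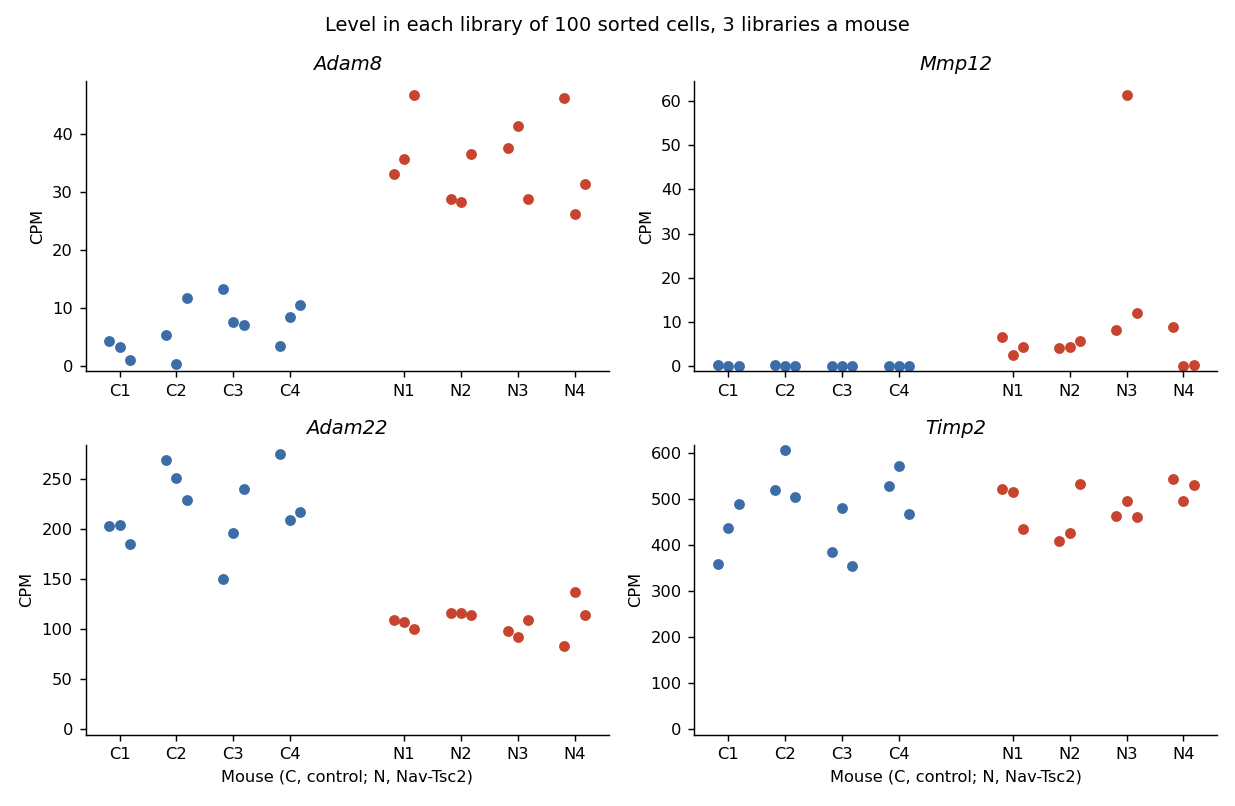
CPM of Adam8, Mmp12, Adam22 and Timp2 in each library of 100 cells, with the 3 libraries of each control (C, blue) and Nav-Tsc2 (N, red) mouse side by side. The libraries of both genotypes are apart for Adam8 and Adam22, Timp2 overlaps throughout, and Mmp12 is high in 10 of the 12 Nav-Tsc2 libraries with a single value of 61.5 CPM.

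Among the inhibitors, Timp2 was at 430.2, 539.1, 429.4 and 514.1 CPM in control and 488.8, 458.1, 469.4 and 519.4 CPM in Nav-Tsc2 mice. The genotypes overlapped in full, with a log2 fold change of 0.02 ± 0.09 (adjusted p = 0.927). Timp3, which encodes the TIMP that is bound to the matrix and inhibits Adam17 and the aggrecanases, was at 22.3, 31.8, 29.8 and 21.5 CPM in control and 20.8, 9.87, 23.8 and 24.1 CPM in Nav-Tsc2 mice (log2 fold change -0.42 ± 0.27, adjusted p = 0.311). Exons of Syn3, on the opposite strand, cover 21.3% of the exon bases of Timp3.

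Timp1, which many cells make after injury, was at 0.390, 0.947, 1.61 and 2.87 CPM in control and 3.60, 4.78, 1.60 and 3.03 CPM in Nav-Tsc2 mice (log2 fold change 1.16 ± 0.59, adjusted p = 0.204). It reached 1 CPM in 6 of 12 control and 12 of 12 Nav-Tsc2 libraries, and in the fit of single libraries its adjusted p was 0.00948, in a range up to 0.412 over the alternatives. Timp4 was at 0.454 ± 0.319 and 0.821 ± 0.204 CPM in control and Nav-Tsc2 mice (adjusted p = 0.533).

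The other members were at low levels or did not pass the test. The 10 further members with a mean of at least 1 CPM had log2 fold changes from -2.34 to 1.56 and adjusted p from 0.0584 to 0.850. Of the 15 tested members under 1 CPM, 2 were called, Mmp19 and Mmp23. A further 17 members had 1 to 200 counts over all mice and were not tested, and 16 had no count, among them the collagenase gene Mmp13, the matrilysin gene Mmp7 and several Adam genes known from testis.

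Each genotype had 2 male and 2 female mice, which allowed a test of whether the effect of genotype differed between sexes. The log2 fold change had the same sign in male and female mice for all 15 called members. In 14 of them the mice of both genotypes did not overlap, which fixes that sign in advance, so it is no separate evidence. The interaction passed the edgeR test in 0 of the 50 members, where 0.00582% of all genes did, with 10 members (20.0%) at an unadjusted p under 0.05, where 9.23% of all genes were, and a smallest adjusted p of 0.323. DESeq2 called 1 member, Adamts2, where it called 1.98% of all genes. Adamts2 had a log2 fold change of -5.62 between male and -1.45 between female mice.

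Genes that activate or hold back these proteases were on a list of 28, of which 24 were tested. Their median log2 fold change was 0.52, with 2 (8.33%) called lower and 5 (20.8%) called higher, where 8.05% and 9.15% of all genes were. DESeq2 called 2 lower and 10 higher, and at an unadjusted p under 0.05 there were 3 lower and 12 higher. Plaur, which encodes the receptor of urokinase, a protease that starts the plasmin cascade, was at 6.41, 16.0, 19.9 and 15.2 CPM in control and 69.5, 69.5, 66.7 and 43.1 CPM in Nav-Tsc2 mice (log2 fold change 2.11 ± 0.31, adjusted p = 0.00145). Spock1, which encodes a neuronal proteoglycan that modulates protease activity, fell from 208.5 ± 67.2 to 70.2 ± 4.83 CPM (log2 fold change -1.57 ± 0.20, adjusted p = 0.000679). A2m, which encodes the protease trap alpha-2-macroglobulin, fell from 8.27 ± 3.25 to 0.588 ± 0.412 CPM (adjusted p = 0.00156).

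Of 31 genes for membrane proteins that are shed and for the gamma-secretase that acts after shedding, 26 were tested. Their median log2 fold change was -0.02, with 5 (19.2%) called lower and 3 (11.5%) called higher, against 8.05% and 9.15% of all genes. Ngfr, the p75 neurotrophin receptor and a known substrate of Adam17, fell from 407.4 ± 123.7 to 74.7 ± 16.6 CPM (log2 fold change -2.45 ± 0.25, adjusted p = 0.000195). Prnp, the prion protein, a known substrate of ADAM proteases, rose from 208.1 ± 48.9 to 400.6 ± 21.6 CPM (log2 fold change 0.94 ± 0.15, adjusted p = 0.00206), and Chl1, an adhesion protein shed by Adam8, rose from 101.9 ± 24.4 to 169.3 ± 23.96 CPM (adjusted p = 0.0154).

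Of 35 genes for matrix proteins that these enzymes cut, 33 were tested. Their median log2 fold change was 0.36, with 1 (3.03%) called lower and 3 (9.09%) called higher, at or under the 8.05% and 9.15% of all genes. Ncan, a proteoglycan cut by aggrecanases, fell from 155.1 ± 47.2 to 69.3 ± 9.97 CPM (log2 fold change -1.16 ± 0.21, adjusted p = 0.00441). Lama5, a laminin chain, rose from 0.106 ± 0.107 to 5.30 ± 0.972 CPM (adjusted p = 0.00039), and Tnr, the matrix glycoprotein tenascin-R, rose from 7.19 ± 2.82 to 13.6 ± 1.74 CPM (adjusted p = 0.0432). With the replicate number as a block, the calls of Sort1 among the shed proteins (adjusted p = 0.0731) and of Nid1 among the matrix proteins (adjusted p = 0.0561) were lost, and no other called gene of these 3 lists was.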

How the data were processed

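RNA-seq libraries of sorted cells were made with the SMARTer Ultra Low kit and sequenced as single reads of 50 bases. Per the labels and the study's methods, the authors aligned reads to mm10 with STAR, counted them with HTSeq and deposited 1 unnormalised count per gene and library; versions and the strand setting are not given in the sources used here. The authors' table of DESeq2 results, which holds their own comparison and normalised values, was not used. The 3 technical libraries of each mouse were summed. Counts were tested between 4 control and 4 Nav-Tsc2 mice with edgeR 4.0.16 (R 4.3.3): TMM normalisation, filterByExpr, robust quasi-likelihood F-test, Benjamini-Hochberg adjustment over all genes tested. Standard errors were derived as |log2 fold change| over the root of the F statistic. Levels are CPM on TMM-scaled library sizes. Reads were amplified without molecular identifiers, so limits derived from counts cover counting error only. Alternatives were DESeq2 1.42.0, its size factors, no low-count filter, the replicate number as a block, sex as a covariate, single libraries in limma 3.58.1 (voom), each mouse being a random effect, no fold-change limit, a minimum of 5 CPM for medians, and leaving out each mouse.

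Equal replicate numbers deviated together over 8445 genes of at least 10 CPM. Deviations from the genotype means correlated at r = 0.184, 0.185, 0.108 and 0.199 for the 4 same-numbered pairs, all over 0.1. The replicate number entered only the alternative with a block, and the main fit did not pair the mice. Unequal numbers of the same sex correlated alike (0.198, 0.0627, 0.185 and 0.110) and mice of unlike sex negatively, so the number cannot be told apart from sex in this check. The zinc-binding site was searched in proteins translated from GENCODE M21 coding sequences (GRCm38) and not, as planned, in RefSeq proteins; the wider form with another residue in place of glycine was chosen after the first search. Adam22, Adam23 and Adam11 were placed by alignment, Adam22 and Adam23 to Adam19 and Adam11 to Adam23. Exon lengths are merged exons of the same annotation. The members, gene lists and marker lists were chosen with earlier results of these data known. The genes named are all called members, all Timp genes, the 4 most abundant members of each other subfamily, 11 members of common interest, members whose call changed in 5 or more alternatives, and up to 2 called genes a list and direction with the smallest adjusted p. Adam4, Adam5, Adam9, Adam32, Lgi1, Lgi2, Lgi3, Cntnap2, Sort1, Nid1, Cx3cr1, Aif1, C1qb, Acta2, Pdgfrb, Mmp7, Mmp13 and the marker genes named are named although they do not meet this rule, and were picked with their values in view. Of the genes that the rule selects, 2 are not reported here.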

Additional observations from a re-analysis of the deposited data

Results flagged for a closer look

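In 4 of 60 groups of 4 mice tested, 1 mouse stood apart from the others by the criterion of Dixon; chance gives about 3. Mmp12 was at 16.6 CPM in Nav-Tsc2 replicate 3 and at 2.52 to 4.69 CPM in the other Nav-Tsc2 mice. Adamtsl2 was at 4.62 CPM in Nav-Tsc2 replicate 4 and at 1.07 to 1.65 CPM in the others. Adam17 was at 5.16 CPM in Nav-Tsc2 replicate 4 and at 6.77 to 7.04 CPM in the others. Mmp19 was at 0.390 CPM in control replicate 1 and at 0.0189 to 0.0724 CPM in the other control mice.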

How the results depend on the processing

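The calls of 10 of the 15 called members (Adam8, Adam11, Adam19, Adam22, Adamts8, Adamtsl3, Adamtsl5, Mmp12, Mmp15 and Mmp25) held under all 15 alternatives, and no named member changed direction while called. Against 8 lower and 7 higher members, single libraries with a random effect for mouse gave 5 and 11; in that fit the median of all genes moved to 0.14 and 1339 of 4044 called genes were lower, against 1382 of 2954. Leaving out each mouse gave 5 to 9 lower and 6 to 7 higher members. For Adamts, against 2 lower and 1 higher, DESeq2 gave 4 and 3, the replicate block 0 lower, the random effect 1 and 3, and leaving out each mouse 0 to 3 lower and 1 to 2 higher. For Mmp, against 2 lower, the random effect gave 1 and leaving out each mouse 1 to 2. For Timp the random effect called 1 gene higher, Timp1, against 0. The replicate block changed no other call of a named member than those of Adamts2, Adamts5 and Mmp19, and gave 2395 called genes in place of 2954.

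The median over all members was -0.13 and became 0.0232 with the replicate block, 0.0758 with the random effect, 0.0144 at a minimum of 5 CPM, and -0.143 to 0.0528 without each mouse. The random effect moved the Adam median from 0.01 to 0.21 and the Adamts median from -0.59 to -0.35. A minimum of 5 CPM moved the medians of Adamts to -0.0488, of Adamtsl from -0.45 to 0.93, of Mmp from 0.49 to 0.0562 and of Timp from 0.02 to -0.20, over 4, 2, 4 and 2 genes. Leaving out each mouse gave Mmp medians of 0.13 to 0.61. The interaction with sex called 0 members by edgeR (10 at an unadjusted p under 0.05) and 1 by DESeq2. The cause was not tested, apart from the smaller number of genes at 5 CPM and of mice in the fits that left a mouse out. Members under 1 CPM rest on few counts, and their fold changes are uncertain.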
